A study of Mus musculus with 5 samples.

Results

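The circadian clock and its output genes were examined in the liver of E18.5 mouse embryos as 10 genes chosen by symbol: Clock, Per2, Per3, Cry1, Cry2, Ciart, Nr1d1, Nr1d2, Dbp and Tef. All 10 were listed among the 23022 genes of the authors' comparison. Messenger RNA of 5 liver samples was sequenced after poly(A) selection. The 4N group held 3 livers. Its embryos were Hhex knockouts that had received tetraploid (4N) embryonic stem cells positive for td-Tomato at the blastocyst stage. The WT group held 2 livers from normal embryos of the same day. Ploidy, the origin of the liver cells, the Hhex genotype of the host and its manipulation therefore changed together and cannot be told apart. The labels do not give the share of 4N cells in a liver or which cells the host still contributed. The labels give neither the time of day at which the livers were taken nor whether livers of 1 group shared a litter, so p-values measure only the spread between these samples. The file holds means and fold changes only. Values per liver were not analysed here, and the depth of each library is unknown.

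The mammalian clock is a transcriptional loop that runs in almost every cell. CLOCK pairs with BMAL1 and activates genes with E-box motifs, among them those of the PER and CRY proteins, which return to inhibit the pair. A further loop runs through the nuclear receptors REV-ERB alpha and beta, encoded by Nr1d1 and Nr1d2, which repress Bmal1 in competition with the ROR receptors. The PAR bZIP activators DBP and TEF bind D-box motifs and carry the rhythm to output genes, in adult liver including those of drug metabolism. In mice, rhythms of these genes in the liver strengthen around and after birth.

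The REV-ERB genes, the PAR bZIP genes and Per3 were lower in 4N liver, whereas Clock, Per2, both Cry genes and Ciart did not pass the test. Of the 10 genes, 5 fell, 0 rose and 5 did not pass the authors' Wald test at a Benjamini-Hochberg adjusted p under 0.05, taken over all genes listed. Over all genes listed, 7.41% were called lower and 7.94% higher. Among the 11786 genes whose mean lay within the range of the 10, 9.3% were called lower and 9.29% higher. The median log2 fold change of the 10 genes was -0.84 in the authors' deposited table, beside -0.00101 over all genes listed, and 9 of the 10 values were negative. Fold changes are 4N against WT, and group means are implied values, computed from the mean over all libraries and the fold change in the authors' deposited table. They carry no error of their own, so the error is given on the log2 fold change, where ± marks its standard error (SE). In a bulk sample, fewer cells of a type and less RNA per cell cannot be told apart.

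**Figure D1:**
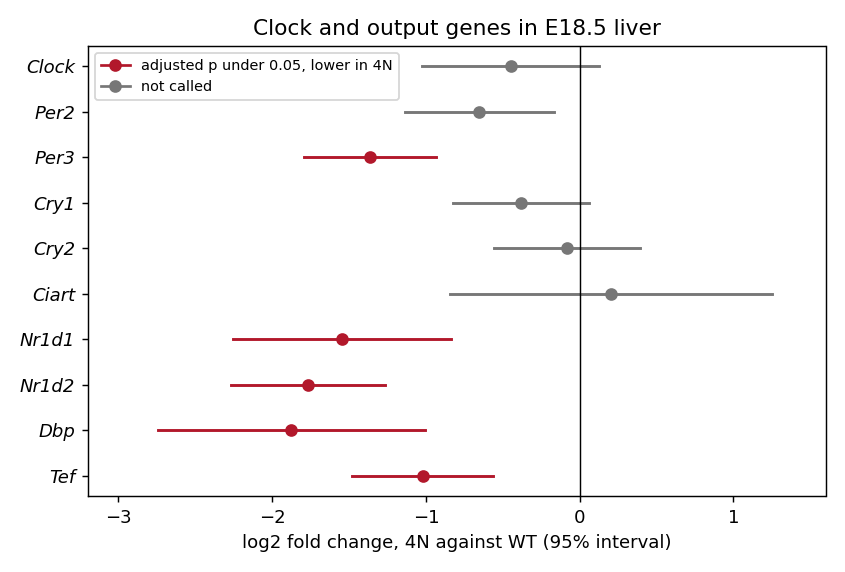
Log2 fold change of each clock gene in 4N against WT liver, from the authors' deposited table, as a point with its 95% interval (1.96 standard errors each side); red marks genes called lower. The intervals of Per3, Nr1d1, Nr1d2, Dbp and Tef end below 0, and so does that of Per2, which was not called after adjustment.

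Among the genes of the repressing PER, CRY and CHRONO proteins, Per3 fell and the others did not pass. Per3, a PER family member that is dispensable for the core rhythm in mice, had an implied mean of 1381 normalized counts in 4N livers and 3555 in WT livers. The authors' deposited table gave it a log2 change of -1.36 ± 0.22 (adjusted p = 2.03e-08). This places the 4N level of Per3 at 38.9% of WT (95% interval 28.9% to 52.3%). Per3 overlaps the gene Camta1 on the same strand, so strand would not separate the reads of that overlap. Camta1 had a mean of 713 normalized counts and a log2 change of 0.37 ± 0.25 in the authors' deposited table (adjusted p = 0.36). Per2, the PER protein on which the core rhythm depends more strongly, had an implied mean of 2600 normalized counts in 4N livers and 4086 in WT livers. Its log2 change in the authors' deposited table was -0.65 ± 0.25 (adjusted p = 0.054), just outside the threshold. The fold change of Per2 minus that of Per3 was 0.71 on the log2 scale (95% interval 0.06 to 1.36, treating the errors of the 2 genes as independent).

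The cryptochromes, which form the main transcriptional repressors of CLOCK and BMAL1, did not pass. Cry1 had an implied mean of 990 normalized counts in 4N livers and 1290 in WT livers, with a log2 change of -0.38 ± 0.23 in the authors' deposited table (adjusted p = 0.29). Cry2 stood at 3296 in 4N livers and 3485 in WT livers, with a log2 change of -0.08 ± 0.24 in the authors' deposited table (adjusted p = 0.90). For Cry2 the 95% interval was -0.55 to 0.39 in the authors' scaling only. Under the recentring on secreted plasma protein genes given below, its value was 0.67. Cry1 minus Cry2 gave -0.30 (95% interval -0.95 to 0.35, errors taken as independent), so a difference between the cryptochromes was not shown. Clock, the activating partner, had 2365 in 4N livers and 3224 in WT livers, a log2 change of -0.45 ± 0.29 in the authors' deposited table (adjusted p = 0.35). Clock overlaps Ube2n-ps1 and Gm43658 on the same strand, and Cry2 overlaps D930015M05Rik on the opposite strand. None of these overlapping genes was called.

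Ciart, whose product CHRONO also represses CLOCK and BMAL1, had the lowest mean count of the 10. It stood at 90.2 normalized counts over all libraries, with implied means of 95.3 in 4N livers and 82.6 in WT livers. The log2 fold change of 0.21 in the authors' deposited table had an SE of 0.54 and an interval of -0.84 to 1.25 (adjusted p = 0.87). At this SE an estimated change would have had to reach 1.43 on the log2 scale to be called, against 0.60 for Cry1 and 0.64 for Cry2. An estimate equal to that of Per3 would thus not have been called for Ciart by this test. Ciart also overlaps the antisense gene C920021L13Rik, at a mean of 87.6 normalized counts and a log2 change of -1.22 ± 0.68 in the authors' deposited table (adjusted p = 0.25), and the sources used here do not say whether strand was used in counting.

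Both REV-ERB genes fell. Nr1d2 had an implied mean of 1244 normalized counts in 4N livers and 4232 in WT livers, a log2 change of -1.77 ± 0.26 in the authors' deposited table (adjusted p = 3.81e-10). Nr1d1 had 300.3 in 4N livers and 875 in WT livers, a log2 change of -1.54 ± 0.36 in the authors' deposited table (adjusted p = 0.00034). The 4N level was 29.4% of WT for Nr1d2 (95% interval 20.7% to 41.7%) and 34.3% for Nr1d1 (21.0% to 56.1%). Nr1d1 minus Nr1d2 was 0.22 (95% interval -0.65 to 1.09, errors taken as independent), so the 2 falls were not shown to differ. Nr1d1 overlaps the thyroid hormone receptor gene Thra on the opposite strand, where without strand the reads of the overlap cannot be told apart. Thra itself stood at 0.48 ± 0.24 in the authors' deposited table (adjusted p = 0.18), opposite in sign to Nr1d1.

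Both PAR bZIP members fell as well. Dbp, one of the most strongly rhythmic transcripts of adult liver, had an implied mean of 166 normalized counts in 4N livers and 609 in WT livers. Its log2 change of -1.87 ± 0.44 (adjusted p = 0.00040) in the authors' deposited table was the lowest value of the 10 genes, and its 4N level was 27.3% of WT with a wide 95% interval of 14.9% to 49.8%. Tef, the most abundant of the 10, had 4217 in 4N livers and 8550 in WT livers, a log2 change of -1.02 ± 0.23 in the authors' deposited table (adjusted p = 0.00023). The 4N level of Tef was 49.3% of WT (95% interval 35.9% to 67.8%). Dbp minus Tef was -0.86 (95% interval -1.84 to 0.13, errors taken as independent). Dbp overlaps the sphingosine kinase gene Sphk2 on the opposite strand, which stood at -0.45 ± 0.33 in the authors' deposited table (adjusted p = 0.42). Tef overlaps the antisense gene Gm17597, at a mean of 18.9 normalized counts. Gm17597 stood at -2.23 ± 1.54 in the authors' deposited table (adjusted p = 0.38).

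**Figure D2:**
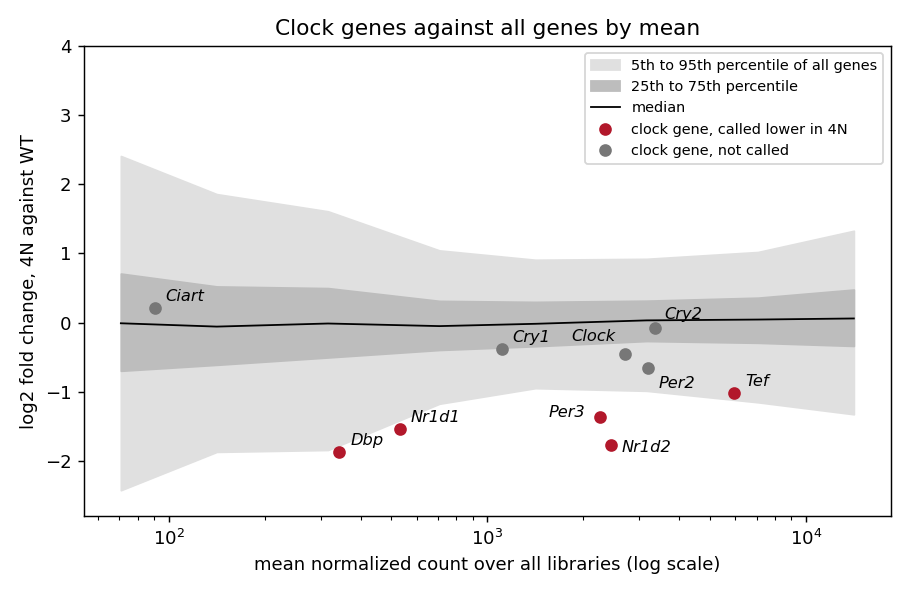
Log2 fold change (4N against WT) of the clock genes against their mean normalized count over all libraries (log axis), both from the authors' deposited table, over the percentiles of all genes in 8 bins of mean from 50 to 20000. Nr1d2 and Per3 (bin of 2000 to 5000 counts, 5th percentile -0.99), Nr1d1 (500 to 1000 counts, -1.17) and Dbp (200 to 500 counts, -1.84) lie below the 5th percentile of their bins, Tef (5000 to 10000 counts, -1.15) lies above it, and Ciart and Cry2 lie close to the median.

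Expressed per kilobase of merged exon, so that genes can be compared, the level differed widely among the 10 genes. In 4N livers the highest were Tef at 536 normalized counts per kb, Cry2 at 522 and Per2 at 444, and the lowest were Nr1d1 at 97.6, Dbp at 55.5 and Ciart at 42.1. In WT livers the highest were Tef at 1087, Nr1d2 at 782 and Per2 at 698, and the lowest were Clock at 235, Dbp at 204 and Ciart at 36.5. Nr1d2 thus held the second place in WT livers and the fifth, at 230.0 normalized counts per kb, in 4N livers. No spread within groups is given in the table, so neighbours in these orders cannot be said to differ.

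**Figure D3:**
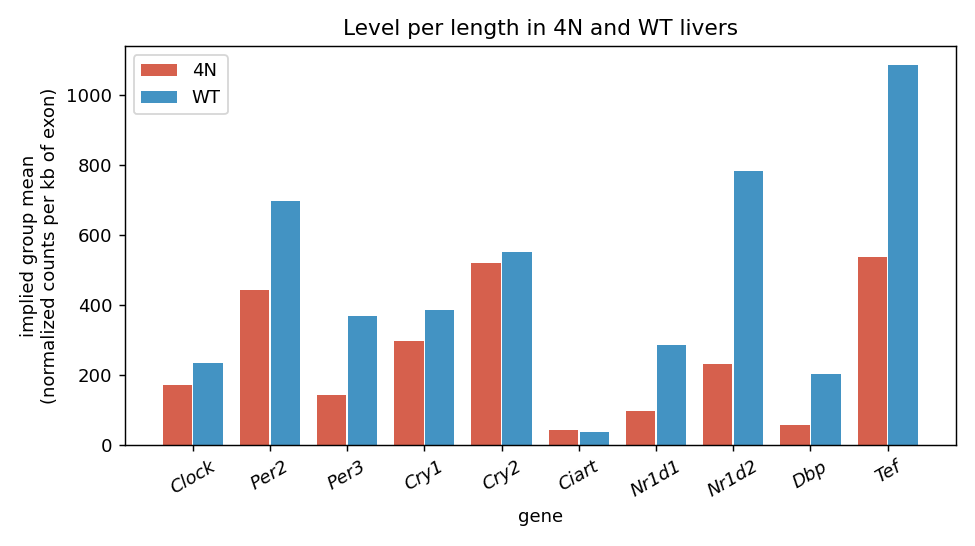
Implied group means of the clock genes in normalized counts per kilobase of merged exon, 4N (red, left) and WT (blue, right), with no error bars because values per liver were not analysed here. The Nr1d2 bars stand at 230.0 in 4N and 782 in WT, and the Cry2 bars at 522 in 4N and 551 in WT.

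Promoter sequence was compared because genes on both sides of the threshold are known targets of CLOCK and BMAL1. RefSeq windows (GRCm38.p6, from 250 bases before to 50 after each annotated start) matched 9 of the 10 genes, with 12 windows in all, and none was held for Per2. On both strands the E-box CACGTG, the prime E-box CACGTT, the D-box TTATGTAA or TTACGTAA, and the ROR element core TAGGTCA or TGGGTCA were searched. The E-box is the same on both strands, and none of these motifs contains another. An E-box was present in the windows of Ciart, Cry1 and Tef, and in 7.15% of all 32851 windows. A prime E-box was present in those of Cry1, Cry2 and Nr1d1, and in 4.68% of all windows. Only the window of Per3 among the 9 genes held a D-box, which it held at 2 places, while 1.06% of all windows held one. The ROR core was in 0 of the 12 windows and in 6.45% of all windows. The windows of Clock, Nr1d2 and Dbp held none of the 4 motifs, which says only that these letters are not in these windows.

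The 250 bases before the start are shown for Per3, Nr1d1 and Tef, which fell, and for Ciart and Cry1, which did not pass. These are 5 of the 6 genes with a match, and Cry2, which did not pass, is not shown. Each sequence shown is written 5' to 3' on the strand of the gene, with motif matches in capitals. They lie at chr4:151044666-151044915 (minus strand), chr11:98775378-98775627 (minus strand), chr15:81811164-81811413 (plus strand, the downstream of 2 annotated starts), chr3:95882229-95882478 (minus strand) and chr10:85185055-85185304 (minus strand) of GRCm38.p6.
Per3: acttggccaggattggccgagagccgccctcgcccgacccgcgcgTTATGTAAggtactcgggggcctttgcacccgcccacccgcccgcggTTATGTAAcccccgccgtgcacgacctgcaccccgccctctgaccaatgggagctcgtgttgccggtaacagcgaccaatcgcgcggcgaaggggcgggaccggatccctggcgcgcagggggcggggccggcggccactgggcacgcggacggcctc
Nr1d1: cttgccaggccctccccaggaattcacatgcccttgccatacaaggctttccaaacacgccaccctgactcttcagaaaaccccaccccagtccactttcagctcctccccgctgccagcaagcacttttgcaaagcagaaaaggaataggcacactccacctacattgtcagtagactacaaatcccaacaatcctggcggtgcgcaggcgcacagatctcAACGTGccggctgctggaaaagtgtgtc
Tef: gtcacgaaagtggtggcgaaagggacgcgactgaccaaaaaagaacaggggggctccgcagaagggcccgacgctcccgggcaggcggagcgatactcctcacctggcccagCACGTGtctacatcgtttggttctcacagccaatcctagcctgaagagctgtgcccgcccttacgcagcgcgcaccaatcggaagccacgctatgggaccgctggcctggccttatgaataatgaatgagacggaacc
Ciart: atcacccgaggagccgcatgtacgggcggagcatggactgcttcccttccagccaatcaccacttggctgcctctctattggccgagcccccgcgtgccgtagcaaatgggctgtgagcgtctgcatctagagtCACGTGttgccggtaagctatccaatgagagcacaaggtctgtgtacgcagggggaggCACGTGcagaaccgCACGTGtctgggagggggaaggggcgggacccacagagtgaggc
Cry1: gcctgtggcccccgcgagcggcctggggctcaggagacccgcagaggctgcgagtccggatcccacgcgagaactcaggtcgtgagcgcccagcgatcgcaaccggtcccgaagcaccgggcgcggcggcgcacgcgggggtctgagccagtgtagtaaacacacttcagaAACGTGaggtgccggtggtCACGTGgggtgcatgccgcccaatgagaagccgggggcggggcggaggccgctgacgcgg
The D-boxes of Per3 begin at -205 and -158 from the start. The 3 E-boxes of Ciart begin at -116, -58 and -44, and that of the Tef window shown at -138. The other Tef window holds an E-box at -127. In Cry1 a prime E-box on the opposite strand at -79 is followed by an E-box at -60, and in Nr1d1 a prime E-box on the opposite strand begins at -28. In Cry2 a prime E-box on the opposite strand begins at -166. E-box matches were held both by a gene that fell, Tef, and by genes that did not pass, Ciart and Cry1. Prime E-box matches were likewise held by Nr1d1, which fell, and by Cry1 and Cry2, which did not pass. A match is a description of letters and not a bound site. Not passing does not mean unchanged, as Ciart could be called only from an estimated log2 change of 1.43. Whether the motifs bear on the fold changes was not tested.

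**Figure D4:**
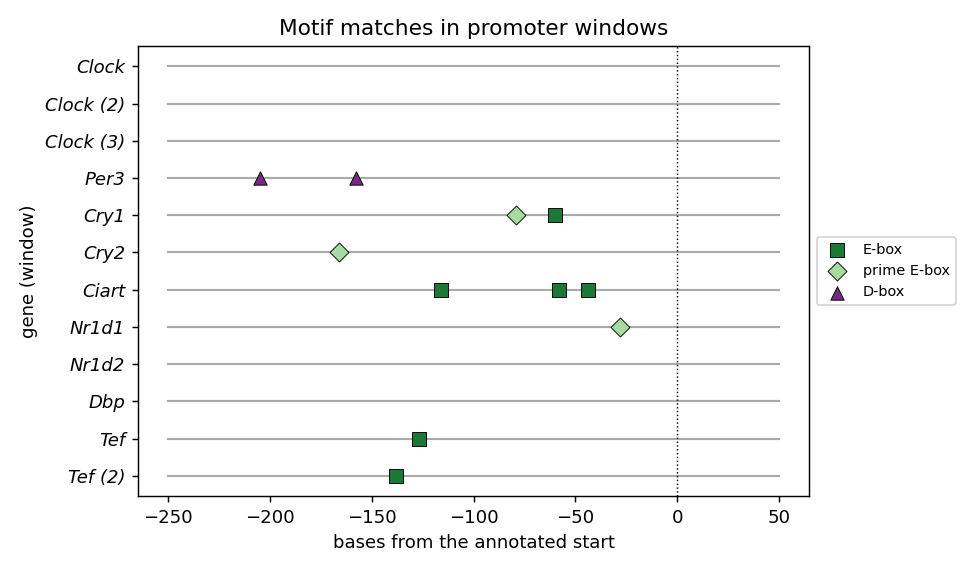
Motif matches in the 12 RefSeq promoter windows, by distance in bases of the first base of the match from the annotated start; squares are E-boxes, diamonds prime E-boxes and triangles D-boxes, and numbers in brackets mark further starts of a gene. Ciart holds 3 E-boxes, Per3 holds 2 D-boxes, and the windows of Clock, Nr1d2 and Dbp are empty.

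The other genes of the loop were mostly not called. Of 9 reported here, 1 fell, 0 rose and 8 did not pass. By the authors' Wald test, 4 of the 9 had an unadjusted p under 0.05, and 4 of the 9 values were negative. The one that fell was Hlf, the third PAR bZIP gene, with implied means of 2671 normalized counts in 4N livers and 4572 in WT livers and a log2 change of -0.78 ± 0.23 in the authors' deposited table (adjusted p = 0.0072). Nfil3, which encodes a repressor acting at the same D-boxes, stood at 0.02 ± 0.24 in the authors' deposited table (adjusted p = 0.97). Arntl, the table's symbol for Bmal1, had implied means of 1423 in 4N livers and 1350 in WT livers and a log2 change of 0.08 ± 0.24 in the authors' deposited table (interval -0.40 to 0.55, adjusted p = 0.90). Npas2, whose product can stand in for CLOCK, was at 0.97 ± 0.42 in the authors' deposited table (adjusted p = 0.11). Per1, which is also induced directly by glucocorticoids, had 3562 in 4N livers and 1969 in WT livers, a log2 change of 0.86 ± 0.33 in the authors' deposited table (adjusted p = 0.056). The 3 Per genes thus had values of both signs, of which that of Per3 passed the test. Arntl, Per1, Npas2 and Nfil3, all with positive values, were singled out here, beyond the naming rule, after their values were seen. The rest of the list, given beside them, were Rora at -0.54 ± 0.26, Bhlhe41 at -1.20 ± 0.68, Arntl2 at -0.29 ± 0.49 and Bhlhe40 at 0.37 ± 0.30. These are log2 changes in the authors' deposited table, and none of these genes passed.

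The genes reported here that set the stability and activity of the clock proteins did not pass. Of 12 kinases, ubiquitin ligase subunits and a ubiquitin protease, 0 were called in either direction by the authors' Wald test and 2 had an unadjusted p under 0.05, with a median log2 fold change of 0.13 and a range of -0.67 to 0.47. The 2 with the highest means were both kinase genes, Csnk1d (0.09 ± 0.20), whose product phosphorylates PER proteins, and Csnk2a1 (-0.31 ± 0.20), a catalytic subunit of casein kinase 2, as log2 changes in the authors' deposited table. Of 12 cofactors of the loop, 0 were called in either direction by the authors' Wald test and 0 had an unadjusted p under 0.05, with a median of 0.11 and a range of -0.19 to 0.44. The 2 with the highest means were the RNA helicase gene Ddx5 (-0.13 ± 0.20) and the splicing factor gene Sfpq (0.13 ± 0.20) in the authors' deposited table.

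**Figure D5:**
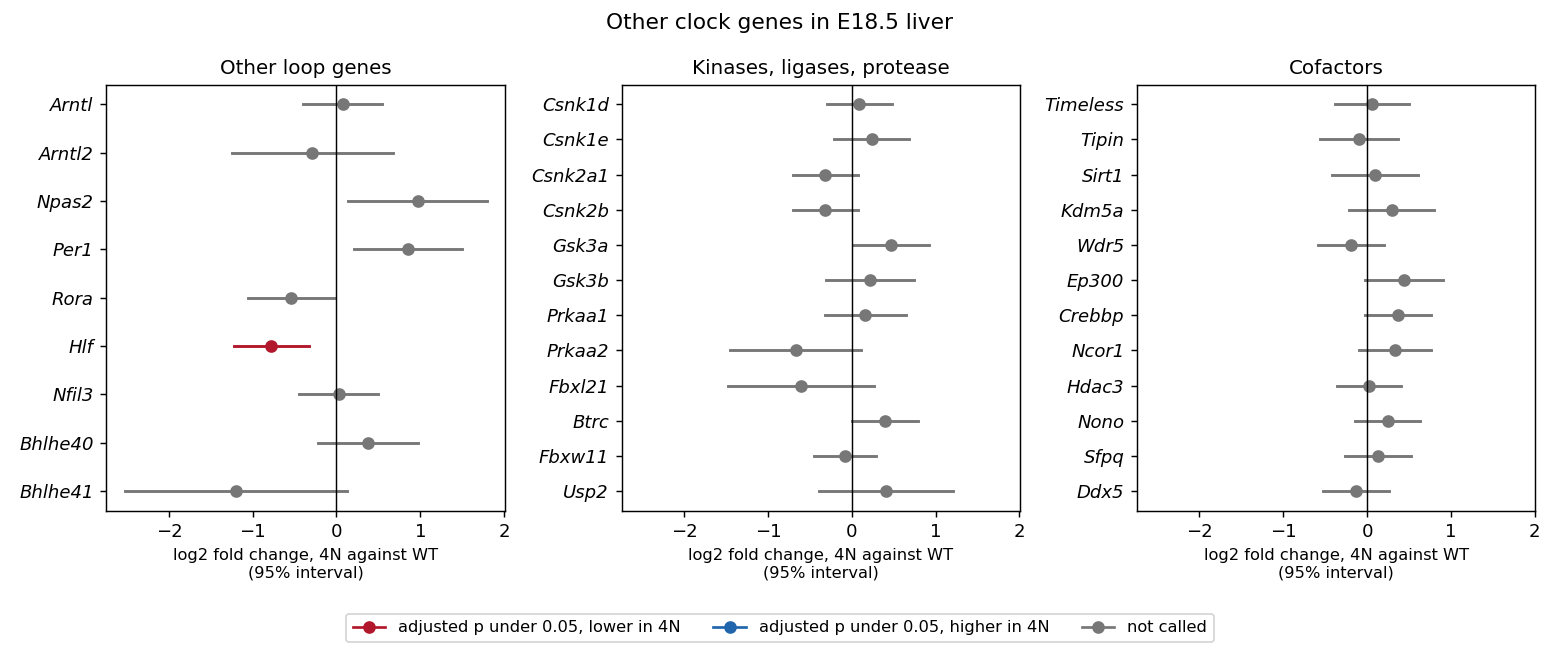
Log2 fold changes (4N against WT) with 95% intervals, from the authors' deposited table, of 9 other loop genes, 12 kinases, ligases and a protease, and 12 cofactors. Hlf is the gene called lower, and the other genes shown were not called.

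Genes known to be rhythmic in adult liver had values of both signs, 7 of 14 of them negative, with a median of -0.04. Of 14 measured, 3 fell, 1 rose and 10 did not pass, beside 7.41% called lower and 7.94% higher over all genes listed. Insig2, a sterol sensor partner whose gene is a REV-ERB target, had implied means of 1600 normalized counts in 4N livers and 5819 in WT livers, a log2 change of -1.86 ± 0.24 in the authors' deposited table (adjusted p = 3.22e-13). Nampt, the rate-limiting enzyme of NAD salvage, stood at -0.70 ± 0.21 in the authors' deposited table (adjusted p = 0.0093). Por, which donates electrons to cytochromes P450, stood at -0.89 ± 0.27 in the authors' deposited table (adjusted p = 0.011). Elovl3, a fatty acid elongase, was called higher at a mean of 11.1 normalized counts and its fitted WT level in the authors' deposited table lies at the floor that stands for 0 reads, so no fold is given. Of 8 genes taken as targets of the PAR bZIP factors, 6 fell, 0 rose and 2 did not pass, with a median of -2.62. The share called lower over all genes listed was the same 7.41%. The xenobiotic receptor Nr1i3, which had implied means of 56.2 in 4N livers and 1153 in WT livers, and the cytochrome gene Cyp2c37, with 562 in 4N livers and 15504 in WT livers, were among the 4 with the smallest adjusted p. The others were Cyp2c50 and Cyp2b10, both with an implied 4N mean of about 1.6 normalized counts. Por and Alas1 are in both lists, and the list was drawn up with earlier results of these livers known, so its direction is not independent evidence.

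Fetal liver is also a blood-forming organ, and marker lists of its cells moved in the same comparison. Hhex, the gene knocked out in the host embryos, was at 0.55 ± 0.33 in the authors' deposited table (adjusted p = 0.29). All 9 measured erythroid markers rose, with a summed implied level of 3266964 normalized counts in 4N livers and 941857 in WT livers, and 0 of them were at the fitting floor. Of 9 measured hepatocyte markers, 3 fell, 0 rose and 6 did not pass, their means were 36322 normalized counts or more, and their summed implied level was 9056626 in 4N livers and 10168158 in WT livers. The ratio of the sums, 4N over WT, was 3.47 for erythroid and 0.89 for hepatocyte markers, beside 0.56 for the 10 clock genes. Alb makes up most of the hepatocyte sum, and without the gene of the highest mean in each list, a choice made after the values were seen, the ratio was 3.43 for erythroid markers, 0.71 for hepatocyte markers and 0.58 for the clock genes. Of 26 secreted plasma protein genes, which include all 9 hepatocyte markers, 16 fell, 1 rose and 9 did not pass, with a median log2 fold change of -0.75, beside -0.84 for the clock genes. The lowest adjusted p among those that fell were those of Hpx (-2.67 ± 0.20) and Hp (-3.48 ± 0.34), which bind heme and hemoglobin, and of Fetub (-2.36 ± 0.27), in log2 changes of the authors' deposited table (adjusted p = 4.12e-37 for Hpx, 1.09e-21 for Hp and 1.34e-16 for Fetub). The one that rose was Afp, the fetal serum protein alpha-fetoprotein (1.03 ± 0.26 in the authors' deposited table, adjusted p = 0.00096). Of 6 macrophage markers 3 rose and 1 fell, with a ratio of sums of 1.27 (1.06 without Csf1r). Of 6 stellate markers 2 rose and 1 fell, with a ratio of 2.02 (1.92 without Reln). Of 6 endothelial markers 1 fell (ratio 0.84, and 0.93 without Stab2), and of 5 cholangiocyte markers 1 fell (ratio 0.73, and 1.23 without Spp1). None of the 6 granulocyte markers (ratio 1.05) or the 4 megakaryocyte markers (ratio 0.71) passed the authors' Wald test, where 0 of the granulocyte and 2 of the megakaryocyte markers had an unadjusted p under 0.05. In these lists 0 markers were at the fitting floor. The part of these shifts in the clock gene values was not tested.

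The calls rest on 5 libraries and on the authors' scaling. When the statistic was read against a t distribution with 3 degrees of freedom, 0 of the 10 genes were called (adjusted p of 0.37 to 0.40 for the 5 genes that fell), as were 0 of all genes listed. Recentring on the 26 secreted plasma protein genes, of which 16 fell in these same data, raises all log2 fold changes by 0.75. By construction this weakens lower calls and adds higher ones. A Wald test on the authors' values after this shift, with Benjamini-Hochberg adjustment, called Per3, Nr1d2 and Dbp lower and Cry2 higher (0.67, adjusted p = 0.017), but no longer called Nr1d1 (-0.79, adjusted p = 0.064) or Tef (-0.27, adjusted p = 0.37). Over all genes listed 8930 (38.8%) were then higher and 734 (3.19%) lower, against 1828 higher and 1705 lower in the authors' scaling.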

How the data were processed

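Livers were grouped by title and genotype label, and libraries were made from poly(A)-selected RNA, per the labels' protocols. The submitters' processing notes name GRCm39 as genome build, while the sources used here do not give aligner, counter or strandedness. The deposited file is 1 comparison table. Its mean is a signal, averaged by the authors over the normalized counts of the 5 livers. The log2 fold change and its standard error are on a log2 scale, per the file headers. The Wald score deposited with them was recomputed as their quotient. The deposited p-values equalled the 2-sided normal tail of that score, and their adjusted form the Benjamini-Hochberg values over 23022 genes. The authors' column names are those of a DESeq2 results table, but the sources used here do not state which software made it.

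The table does not name its numerator. Genes with no reads in 1 group, at the fitting floor of 0.5 counts, have a standard error of at least 1.44 if 2 libraries are empty and 1.18 if 3 are. Such genes were picked by a low implied group mean, because reads per liver are not given. The implied means take 4N as the numerator, so the check partly rests on the direction it settles. Of 247 such genes with negative values 12 lay below 1.44, and of 606 with positive values 0 did, so negative values were read as lower in 4N. Of the 10 clock genes, 0 were at the floor.

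Intervals are 1.96 standard errors each side. Group means were derived from the mean, the fold change and the group sizes of 3 and 2. Exon lengths and overlapping genes came from GENCODE M21, on another build, and promoters from RefSeq on GRCm38.p6. The genes and lists were chosen with earlier results of these data known, and 2 genes of the other lists are not reported here and are left out of their counts. Named genes were all 10 clock genes and, per list, the called genes with the smallest adjusted p (up to 4, or 3 per direction where calls went both ways) or the 2 with the highest mean. The lists of cell type markers did not follow this rule and were given as counts and ratios of sums. As alternatives, genes under a mean of 50 or at the floor were left out, the null was set at a 1.5-fold change, the threshold at 0.01 or the distribution to a t, and values were recentred in 2 ways. Calls and motif search were tested on simulated data. Tools were Python 3.11.15, scipy 1.17.1, numpy 2.4.6, matplotlib 3.10.9 and pandas 2.3.3.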

Additional observations from a re-analysis of the deposited data

How the results depend on the processing

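Leaving out each library in turn was not run, because the file gives no values per liver. No paired analysis was possible because the groups share no replicate number. The depth of single libraries is unknown, and only the standard errors limit what could be called. Per3, Nr1d1, Nr1d2, Dbp and Tef were the 5 genes called at an adjusted p under 0.01, where 5.06% of all genes were called lower. The same 5 were called without genes at the fitting floor, where 7.26% of the genes tested were called lower. Per2 was called too with a minimum mean of 50 and after recentring on abundant genes, those with a mean of 10000 or more. The Wald test recomputed from the authors' values gave Per2 Benjamini-Hochberg adjusted p of 0.041 and 0.033. In these settings 10.7% and 8.34% of the genes tested were called lower. Log2 values change only under the 2 recentrings, and that on abundant genes adds -0.0527 to all of them. The signs of the 5 could thus turn only under recentring on the secreted plasma proteins, where they stayed negative. A test against a 1.5-fold change left 2 clock genes lower, Per3 and Nr1d2, where 2.55% of all genes were called lower. The t reference left 0, with 2513 of all genes at an unadjusted p under 0.05. Recentring on the secreted plasma proteins left 3 lower and made 1 higher.

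Among the 33 other loop genes, kinases, ligases and cofactors, 1 was lower and 0 higher. A minimum mean of 50 made 1 higher, Per1, and the test against 1.5-fold and the t reference left 0 lower and 0 higher. Recentring on the secreted plasma proteins gave 0 lower and 25 higher, where 38.8% of all genes were called higher. By its construction that recentring, which adds 0.75 to all log2 values, turned the sign of Clock (0.30), Per2 (0.10), Cry1 (0.37), Cry2 (0.67), Arntl2 (0.46), Rora (0.21), Csnk2a1 (0.43), Csnk2b (0.43), Prkaa2 (0.081), Fbxl21 (0.14), Fbxw11 (0.67), Tipin (0.65), Wdr5 (0.55) and Ddx5 (0.62), of which Cry2, Fbxw11, Tipin, Wdr5 and Ddx5 were called. Recentring on abundant genes turned Nfil3 (-0.028) and Hdac3 (-0.027), neither of them called. Clock genes with a motif match numbered 6 with either promoter window.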

Other observations

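Genes induced by glucocorticoids, among them Per1, split in direction. Of 8 genes in this list, 2 fell, 1 rose and 5 did not pass, with a median log2 fold change of -0.17. Tat, an enzyme of tyrosine breakdown, had implied means of 426 normalized counts in 4N livers and 18303 in WT livers, a log2 change of -5.43 ± 0.22 in the authors' deposited table (adjusted p = 3.29e-126). Klf9, a zinc finger repressor gene that is also rhythmic in adult tissues, had implied means of 1625 normalized counts in 4N livers and 3979 in WT livers, a log2 change of -1.29 ± 0.25 in the authors' deposited table (adjusted p = 8.1e-06). Dusp1, a phosphatase that inactivates MAP kinases, had 3786 in 4N livers and 1073 in WT livers, a log2 change of 1.82 ± 0.28 in the authors' deposited table (adjusted p = 3.53e-09). Fkbp5, a chaperone gene widely used as a readout of the glucocorticoid receptor and singled out after its value was seen, stood at -0.14 ± 0.21 in the authors' deposited table (adjusted p = 0.77).

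Of 7 immediate early genes, 1 rose, 2 fell and 4 did not pass. In log2 changes of the authors' deposited table, Jun was at 1.07 ± 0.32 (adjusted p = 0.0079), Egr1 at -1.03 ± 0.25 (adjusted p = 0.00072) and Ier2 at -0.86 ± 0.26 (adjusted p = 0.010).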
